A study of Mus musculus with 2 samples.

Results

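C-type lectin receptors are cell surface proteins of phagocytes and other cells that carry a C-type lectin-like domain, which in many members binds sugars. They were taken as the rows of the gene table named Clec with a number and a letter, the Cd209 rows, and Mrc1, Mrc2, Mgl2, Ly75, Cd302, Cd93 and Cd69, 47 of 50608 rows. The study sequenced RNA of peritoneal macrophages, phagocytes of the abdominal cavity, from C57BL6J mice of both sexes, which were pooled, at a developmental stage labelled E15.5. Of the libraries, 1 came from cells treated with GW3965, a compound that activates the liver X receptors (LXRs), nuclear receptors for oxidised cholesterol, and the other from cells treated with the solvent DMSO. No source used here gives the dose, the duration or the number of animals. The design sets activated LXR against solvent.

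The sampled cells shared their strain, source and preparation as far as the labels say, so GW3965 is the labelled difference between the libraries. The column read as GW3965 carries a name that matches its sample only in the opening letters, and Abca1, a well-known LXR target, had 261 FPKM in that library, against 19.9 FPKM in DMSO. Every level here is in FPKM, the reads of a gene scaled to its length and to the library's total. The totals behind the values were 75287120 reads for GW3965 and 101866062 reads for DMSO, so that 1 read over 1000 bases was worth 0.0133 FPKM in GW3965 and 0.00982 FPKM in DMSO. With 1 library per group, no difference has a replicate check, no p-value can be given, and the intervals quoted with ratios cover counting error only. The macrophage markers Adgre1 (35.9 FPKM in GW3965 and 29.3 in DMSO, under its older name Emr1), Itgam (42.7 and 37.2) and Cd68 (238 and 235) were present in both libraries. The 4 markers of large resident peritoneal macrophages were below 1 FPKM in both, summing to 1.33 FPKM in each.

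In this family the receptors are commonly grouped by how they signal. Activating receptors such as Clec7a (dectin-1) or Clec4e (Mincle) recognise parts of fungi, mycobacteria or damaged cells and recruit the kinase Syk, either by a motif in their own tail or through the adaptors Fcer1g and Tyrobp. Inhibitory receptors carry tail motifs that recruit phosphatases, and members of the mannose receptor family mainly bind and internalise their ligands.

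Most genes of the family that are expressed here lie on chromosome 6, where the Clec4 genes and the Clec2, Clec12 and Clec7 genes form clusters. The stretches before the start of 4 genes are shown because these genes carry the main contrasts below. Clec7a and Clec4d had the highest levels, and Clec4e is the low neighbour of Clec4d. Cd302 had the largest ratio between the libraries among the family genes with a mean of at least 1 FPKM. Each is the 250 bases before the gene's start in RefSeq (GRCm38.p6), 5′ to 3′ on the gene's strand, with GAGGAA or its reverse complement TTCCTC, the core to which the myeloid factor PU.1 binds, in capitals. They lie at chr6:129472780-129473029 on the minus strand for Clec7a, chr6:123261857-123262106 on the plus strand for Clec4d, chr6:123289872-123290121 on the minus strand for Clec4e and chr2:60284485-60284734 on the minus strand for Cd302.
Clec7a: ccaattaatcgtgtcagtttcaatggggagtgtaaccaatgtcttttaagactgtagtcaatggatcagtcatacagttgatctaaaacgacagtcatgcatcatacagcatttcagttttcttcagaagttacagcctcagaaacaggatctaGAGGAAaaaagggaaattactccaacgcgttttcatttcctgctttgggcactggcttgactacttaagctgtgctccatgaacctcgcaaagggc
Clec4d: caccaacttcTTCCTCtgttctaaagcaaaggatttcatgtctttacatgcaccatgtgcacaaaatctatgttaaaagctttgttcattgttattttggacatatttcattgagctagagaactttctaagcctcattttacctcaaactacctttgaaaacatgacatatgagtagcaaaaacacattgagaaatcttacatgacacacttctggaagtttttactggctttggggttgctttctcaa
Clec4e: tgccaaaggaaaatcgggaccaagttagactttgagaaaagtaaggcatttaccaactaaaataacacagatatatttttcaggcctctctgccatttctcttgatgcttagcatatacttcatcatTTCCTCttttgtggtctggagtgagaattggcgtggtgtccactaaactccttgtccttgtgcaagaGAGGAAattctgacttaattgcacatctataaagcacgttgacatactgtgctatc
Cd302: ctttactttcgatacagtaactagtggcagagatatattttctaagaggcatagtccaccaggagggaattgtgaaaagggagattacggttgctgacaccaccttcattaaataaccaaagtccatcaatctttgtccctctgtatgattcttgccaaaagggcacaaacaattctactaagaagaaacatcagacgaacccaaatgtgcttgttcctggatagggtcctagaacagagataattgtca

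The match starts 96 bases before the gene in Clec7a, 240 bases before it in Clec4d, and 123 and 56 bases before it in Clec4e. The Cd302 stretch holds none. Of the 16 family genes with a mean of at least 1 FPKM, 14 had such a stretch in the reference table, all but Cd93 and Clec4n, and 9 of these 14 held GAGGAA on either strand: Clec12a, Clec16a, Clec4a1, Clec4a3, Clec4d, Clec4e, Clec5a, Clec7a and Mrc1. Among all 27025 genes with a stretch the share was 25.9%. The LXR response element written as a direct repeat, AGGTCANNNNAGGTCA, was in none of the 14 and in 0.0148% of all genes. Its repeated unit, AGGTCA, was in 2 of the 14, Clec16a and Clec2d, against 15.8% of all genes. TATAAA was in Clec4a2, Clec4e and Clec5a, 3 of the 14, against 14.3% of all genes. Both strands were searched for each motif. A match is only a description of the letters in these 250 bases.

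Of the 47 genes, 16 reached a mean of 1 FPKM over both libraries and are called measured here, and 31 stayed below it. Clec4d, Clec7a, Cd93 and Clec2d made up 83.4% of the family's summed FPKM in GW3965 and 84.0% in DMSO. The sum over all 47 was 458 FPKM in GW3965 and 390 FPKM in DMSO, of which the 31 low genes gave 1.09% and 0.883%. The order of levels thus spans from Clec4d and Clec7a, above 100 FPKM in both libraries, to receptors with a handful of reads.

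**Figure D1:**
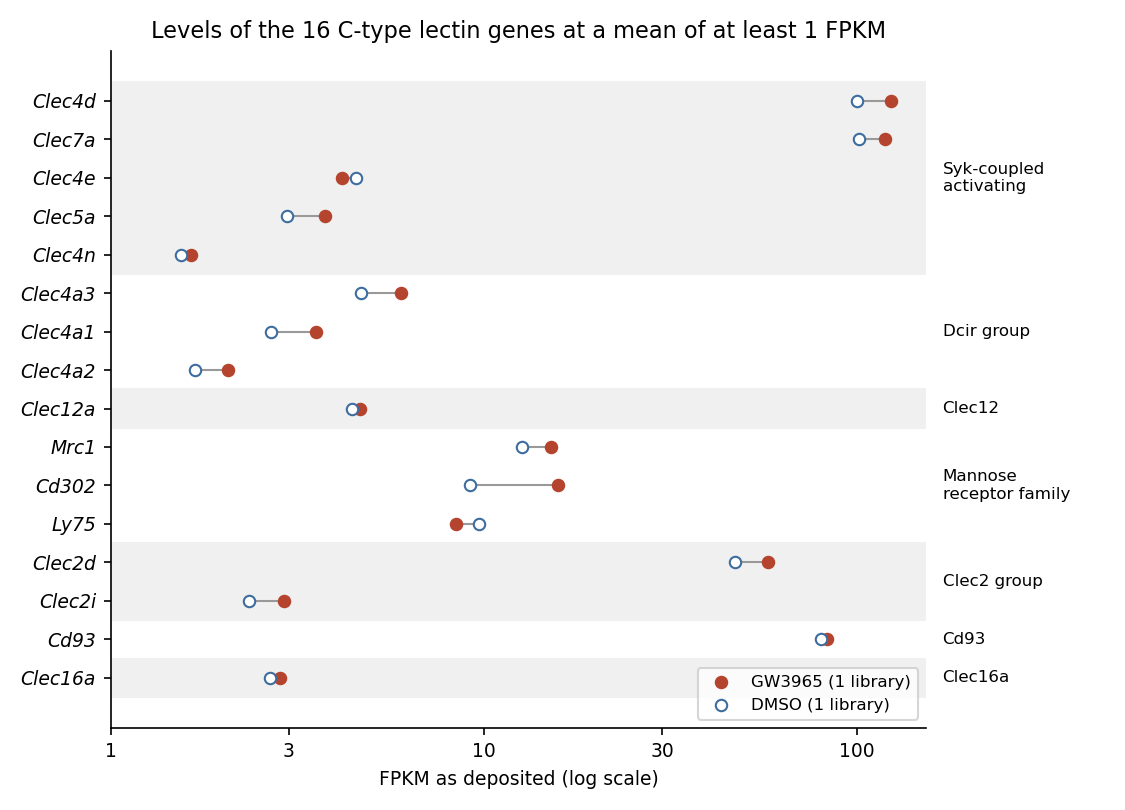
FPKM (x axis, log scale) of the 16 measured C-type lectin genes (rows, grouped by role) in the GW3965 library (filled points) and the DMSO library (open points). Clec4d, Clec7a, Cd93 and Clec2d lie far to the right of the rest, and Ly75 and Clec4e are the only rows with the filled point on the left.

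Between the libraries the family moved little. The log2 ratio used for calls is that of (GW3965 FPKM + 1) over (DMSO FPKM + 1), which understates the change of low genes, and a gene was called higher or lower at 1.5-fold. On this scale 1 of 16 measured members, Cd302, was higher in GW3965, beside 3.46% of all 11889 measured rows, and 0 were lower, beside 0.0757%. The FPKM itself was higher in GW3965 for 14 of the 16, beside 93.6% of all measured rows. The members' median log2 ratio was 0.23 and that of all measured rows was 0.24. Because the whole table is shifted by that amount, centred values, from which the 0.24 is subtracted, are also given. After centring, 0 members were higher (1.38% of all rows) and 0 were lower (0.336%), and the members ran from -0.43 for Ly75 to 0.48 for Cd302 around a median of -0.01. Of the 16, 6 lay above the median of all rows and 10 below it. The middle 90% of all measured rows ran from -0.27 to 0.28, and 13 of the 16 lay inside, with Cd302 above and Ly75 and Clec4e below.

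**Figure D2:**
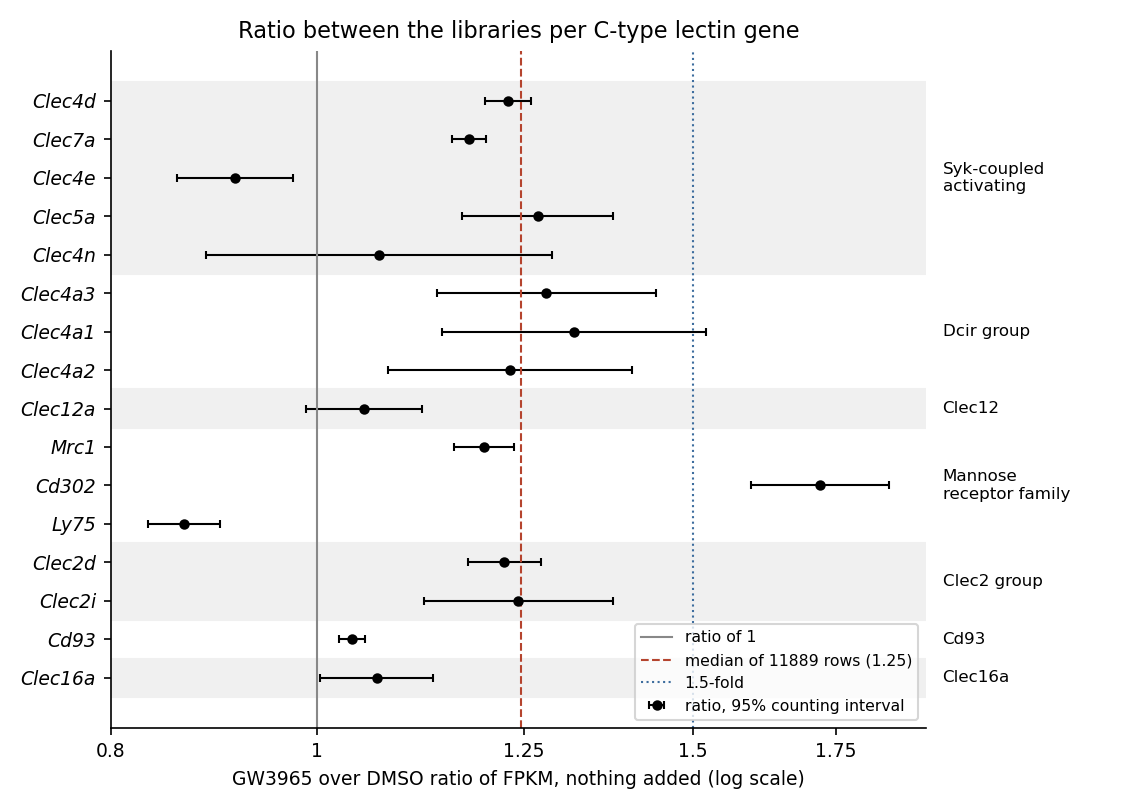
Ratio of GW3965 FPKM over DMSO FPKM with nothing added (x axis, log scale) for the 16 measured genes, with bars for the 95% counting interval; lines mark a ratio of 1, the median of all 11889 measured rows (1.25) and 1.5-fold. Cd302 stands alone to the right of 1.5, and Ly75 and Clec4e alone have intervals wholly to the left of 1.

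With nothing added, 12 of the 16 counting intervals lay wholly above a ratio of 1, those of Ly75 and Clec4e lay wholly below it, and those of Clec4n and Clec12a held it. The count of 12 includes Clec16a, whose interval starts at 1.003 and rests on the longer of its fitted lengths. Shares of all measured rows by interval were not computed, neither against 1 nor against the median ratio used next. The FPKM was higher in GW3965 for 93.6% of these rows, so intervals above 1 are not particular to the family. Set against the median ratio of all measured rows, 1.25, the interval of 1 gene lay above it (Cd302), those of 7 lay below it (Cd93, Clec12a, Clec16a, Clec4e, Clec7a, Ly75 and Mrc1) and those of 8 held it. These intervals rest on 207 to 33652 reads per gene in GW3965 and 262 to 43871 in DMSO. Those with more reads are narrower and exclude 1.25 more readily. The median ratio was lower among abundant rows, at 1.23 for 10 to 30 FPKM and 1.202 for 30 to 300 FPKM. The interval of Mrc1, 1.16 to 1.24, held the former. That of Clec7a ended at 1.200, just below the latter, but its ratio, 1.18, exceeded the lower quartile there, 1.11. Cd93, Clec12a, Clec16a, Clec4e and Ly75 had ratios under the lower quartile of rows at their levels.

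Among the activating receptors that work through Syk, 5 of 7 were measured. Clec7a, the receptor for beta-glucans of fungal walls, had 119 FPKM in GW3965, against 101 FPKM in DMSO, from 21211 and 24362 reads. Its ratio was 1.18 (95% counting interval 1.16 to 1.20) and its centred log2 ratio -0.01. GENCODE release M21 types Clec7a as a polymorphic pseudogene on GRCm38, while RefSeq lists it as protein coding. Clec4d (MCL), which forms a pair with Mincle and binds mycobacterial glycolipids, had 123 FPKM in GW3965, against 100.04 FPKM in DMSO, a ratio of 1.23 (1.20 to 1.26). The 2 most abundant receptors of the family therefore lay within 0.06 of the median of all rows on the centred scale, Clec4d at 0.05.

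Clec4e, Mincle itself, is the neighbour of Clec4d and stood apart from it. It had 4.17 FPKM in GW3965, against 4.55 FPKM in DMSO, from 1673 and 2473 reads. Its ratio was 0.915 (0.860 to 0.974) and its centred log2 ratio -0.35, so that 2.41% of all measured rows had a lower log2 ratio. Scaled to the same sum of FPKM in both libraries, its log2 ratio turned to 0.12. Clec5a (MDL-1), which signals through Tyrobp, had 3.76 FPKM in GW3965, against 2.96 FPKM in DMSO, a ratio of 1.27 (1.17 to 1.38). Clec4n (dectin-2), a receptor for fungal mannans that signals through Fcer1g, had 1.65 FPKM in GW3965, against 1.54 FPKM in DMSO. Clec4n rested on 207 and 262 reads, and its interval, 0.887 to 1.29, holds both a ratio of 1 and the median of all rows. The remaining pair of the group was low in both libraries. Clec1b (CLEC-2), the podoplanin receptor of platelets, had 0.297 FPKM in GW3965, against 0.181 FPKM in DMSO, and Clec9a, the dendritic cell receptor for actin of dead cells, had 0.197 FPKM in GW3965, against 0.151 FPKM in DMSO. Exons of Clec1b and Clec9a overlap on the same strand in GENCODE, so reads of that stretch cannot be told apart.

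The Dcir and Dcar genes, named after a dendritic cell immunoreceptor, had 3 of 6 members measured, each close to the shift of the whole table. Clec4a2 (Dcir1), which carries an inhibitory tail motif, had 2.07 FPKM in GW3965, against 1.68 FPKM in DMSO, a ratio of 1.23 (1.08 to 1.41). Clec4a3 (Dcir3) had 6.01 FPKM in GW3965, against 4.69 FPKM in DMSO. Clec4a1 (Dcir4) had 3.54 FPKM in GW3965, against 2.69 FPKM in DMSO. The last pair had centred log2 ratios of 0.06 each, and Clec4a2 had -0.05. The low members were Clec4a4 (Dcir2), at 0.282 FPKM in GW3965 and 0.162 in DMSO, Clec4b1 (Dcar), at 0.225 and 0.102 FPKM, and Clec4b2, at 0.114 and 0.0839 FPKM. Of the windows of 100 bases in Clec4a4 transcripts, 9.45% also occur in Clec4a2, so an unknown part of the 18 reads of Clec4a4 in GW3965 and the 14 in DMSO could belong to its more abundant paralogue.

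In the Clec12 pair, Clec12a (MICL), an inhibitory receptor of myeloid cells that senses uric acid crystals, had 4.67 FPKM in GW3965, against 4.44 FPKM in DMSO. The ratio was 1.05 (0.988 to 1.12), below the median of all rows, with a centred log2 ratio of -0.18. Clec12b had 9 reads in GW3965 and 7 in DMSO.

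The mannose receptor family held both ends of the range of the measured members. Cd302, a small endocytic receptor of phagocytes linked to adhesion and migration, had 15.8 FPKM in GW3965, against 9.17 FPKM in DMSO, from 1593 and 1253 reads. Its ratio was 1.72 (1.60 to 1.85), its log2 ratio 0.72 with 1 FPKM added and 0.48 after centring, and 98.0% of all measured rows had a lower log2 ratio. Ly75 (DEC-205), an uptake receptor best known from dendritic cells, had 8.40 FPKM in GW3965, against 9.70 FPKM in DMSO, from 4272 and 6673 reads. Its ratio was 0.866 (0.833 to 0.900) and its centred log2 ratio -0.43, and 1.16% of all measured rows had a lower log2 ratio. Scaled to the same sum of FPKM, its log2 ratio turned to 0.06. Mrc1 (CD206), the mannose receptor itself, had 15.2 FPKM in GW3965, against 12.7 FPKM in DMSO, a ratio of 1.20 (1.16 to 1.24). With 1 FPKM added its centred log2 ratio was -0.0017, while with nothing added its interval lay just below the median ratio of all measured rows, 1.25. Mrc2 (Endo180), a receptor for collagen uptake best known in fibroblasts, had 0.282 FPKM in GW3965, against 0.253 FPKM in DMSO.

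Markers of other cells were present in both libraries, most but not all at low levels. Most of their sums were higher in GW3965, as was most of the table. The mesothelial and fibroblast markers, 3 of 5 measured and none at 0, summed to 16.6 FPKM in GW3965 and 10.5 FPKM in DMSO, a ratio of 1.58, beside the median of 1.25 over all measured rows. Dcn made up most of that sum, at 11.6 FPKM in GW3965 and 6.91 in DMSO. The ratio was 1.67 (1.60 to 1.74) for Dcn and 1.81 for Upk3b. Col1a1 did not share this, its ratio being 1.09 (0.981 to 1.21) and its centred value -0.17 on the log2 scale, and the low markers Msln and Wt1 had centred log2 ratios of -0.13 and -0.14. The part of these cells in the Cd302 ratio was not tested. The dendritic cell markers, 0 of 5 measured and none at 0, summed to 0.825 FPKM in GW3965 and 0.519 FPKM in DMSO, a ratio of 1.59. The median was 1.74 over rows as low as the low members and listed above 0 in both libraries. Itgax, listed for small peritoneal and monocyte derived macrophages, was abundant and lower in GW3965, at 107 FPKM against 116 FPKM in DMSO. Its ratio was 0.923 (0.909 to 0.937). Of the same list, Ccr2, Irf4 and Cd226 were below 1 FPKM in both libraries and higher in GW3965. The part of the cells of either list in the Ly75 ratio was not tested. The B cell markers, 2 of 5 measured and none at 0, summed to 4.03 FPKM in GW3965 and 2.72 FPKM in DMSO, and the mast cell and eosinophil markers, 1 of 5 measured and none at 0, to 3.86 FPKM in GW3965 and 2.35 FPKM in DMSO, ratios of 1.48 and 1.64. The 1 measured marker gave most of the latter sum. Beside these ratios, the median was 1.28 over rows of 1 to 3 FPKM, 1.35 over rows of 0.3 to 1 FPKM and 1.49 over rows of 0.1 to 0.3 FPKM. The endothelial markers, 2 of 5 measured and none at 0, summed to 5.16 FPKM in GW3965 and 5.34 FPKM in DMSO. Fewer cells of a type and less RNA per cell cannot be told apart in such bulk libraries.

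Ly75 and Cd302 are neighbours on chromosome 2, on the same strand and 7614 bases apart, and in humans a transcript that joins them is known. Cd302 spans 60251993 to 60284488 and Ly75 60292103 to 60383303 (GRCm38). The level of Cd302 over that of Ly75 was 1.88 in GW3965, against 0.945 in DMSO. The ratio of these ratios, which no scaling of the libraries can alter, was 1.99 (1.83 to 2.16). Part of Ly75, 1.14% of its windows of 100 bases, also occurs in Gm13571 on the other strand, whose exons it overlaps.

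The same comparison was made for each pair of measured members that follow each other within 100000 bases, 6 pairs in all. Clec4d and Clec4e lie 6523 bases apart on opposite strands of chromosome 6, Clec4d at 123262111 to 123275265 and Clec4e at 123281789 to 123289870. The level of Clec4d over that of Clec4e was 29.5 in GW3965, against 22.0 in DMSO, a ratio of ratios of 1.34 (1.26 to 1.44). Clec12a over Clec7a was 0.0393 in GW3965, against 0.0440 in DMSO, a ratio of ratios of 0.893 (0.836 to 0.953). The intervals of the other 3 pairs held 1: Clec4a1 over Clec4a3 had a ratio of ratios of 1.03 (0.855 to 1.24), Clec4a2 over Clec4n 1.15 (0.915 to 1.45) and Clec4n over Clec4d 0.870 (0.720 to 1.05). The intervals thus held 1 in 3 of 6 pairs and excluded it in the other 3. This split depends on the reads as well as on the ratios, since both pairs with Clec4n rest on its 207 and 262 reads. Clec4n over Clec4d, at 0.870, lay further from 1 than Clec12a over Clec7a, at 0.893. An interval that holds 1 therefore does not show that a proportion was kept, and pairs outside the family were not compared.

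Several Clec2 genes encode ligands of receptors on natural killer cells, and with Cd69 they lie in the natural killer gene complex of chromosome 6, apart from Clec2l, which lies at 38663069 to 38680864 on the same chromosome, far from the rest. Of these 9 genes 2 were measured. Clec2d (Clr-b), whose loss from a cell surface marks it for natural killer cells, had 57.5 FPKM in GW3965, against 47.0 FPKM in DMSO. Its ratio was 1.22 (1.18 to 1.27) and its centred log2 ratio 0.04. Clec2i (Clr-g) had 2.92 FPKM in GW3965, against 2.35 FPKM in DMSO, a ratio of 1.24 (1.12 to 1.38). Both thus followed the shift of the whole table. The other 7 were low, with up to 0.417 FPKM in GW3965 and 0.283 FPKM in DMSO. Those of at least 0.1 FPKM were Cd69, an early activation marker of lymphocytes (0.272 FPKM in GW3965 and 0.188 in DMSO), Clec2g (0.417 and 0.283) and Clec2f (0.329 and 0.274), which GENCODE types as a transcribed pseudogene. Clec2j, also annotated as a pseudogene, was listed at 0 in GW3965 and at 0.0475 FPKM in DMSO, the only member listed at 0 in a library.

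Cd93, a receptor of the thrombomodulin group found on myeloid and endothelial cells and linked to the removal of dying cells, was the third most abundant member. It had 82.8 FPKM in GW3965, against 79.8 FPKM in DMSO, from 33652 and 43871 reads, the most of any member. Its ratio of 1.04 (1.02 to 1.05) lay below the median of all rows, at a centred log2 ratio of -0.19. Clec14a, its endothelial relative, had 23 reads in GW3965 and 13 in DMSO. Clec16a, named as a lectin but known as an intracellular regulator of mitophagy, had 2.85 FPKM in GW3965, against 2.67 FPKM in DMSO, a ratio of 1.07 (1.003 to 1.13). This interval rests on a fitted length of 8793 bases. A length of 4446 bases also fitted, with fewer reads and so a wider interval, which could hold 1 and was not computed. Among the other genes of that remainder, Clec1a had 0.505 FPKM in GW3965 and 0.311 in DMSO, and the secreted growth factor gene Clec11a had 0.315 FPKM in GW3965 and 0.334 in DMSO.

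Several other receptors were low in both libraries. The galactose and GalNAc binding lectins Clec10a (Mgl1) and Mgl2 had 0.358 and 0.157 FPKM in GW3965, against 0.325 and 0.0969 FPKM in DMSO, and Clec4f, a marker of liver macrophages, had 11 reads in GW3965 and 6 in DMSO. The 7 Cd209 genes, relatives of human DC-SIGN, had 102 reads together in GW3965 and 67 in DMSO. None of the 7 reached 0.14 FPKM, the highest being Cd209c at 0.135 FPKM in GW3965 and 0.0537 FPKM in DMSO, and Cd209g at 0.1005 FPKM in GW3965 and 0.0594 in DMSO.

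All 7 Cd209 genes had a higher FPKM in GW3965, and their median ratio was 2.26. Rows of the same level did so too: of 10613 other rows between the lowest and highest Cd209 mean, 88.0% were higher in GW3965, with a median ratio of 1.97. The largest Cd209 ratios came from the fewest reads, with 5 reads in GW3965 and 1 in DMSO for Cd209d (ratio 6.77, interval 0.757 to 320.0) and 12 and 3 reads for Cd209e (5.41, interval 1.46 to 29.9). Of the 31 low members as a whole, 28 were higher in GW3965, beside 87.1% of 28473 rows over the same range of means. The members' median ratio, without Clec2j, was 1.63 and that of these rows was 1.74. The intervals of 28 of the 31 held 1.74, and those of Clec10a, Clec11a and Mrc2 lay below it. The sequence shared between paralogues bears on a few of these, since 19.9% of the windows of 100 bases in Cd209f also occur in Cd209g.

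**Figure D3:**
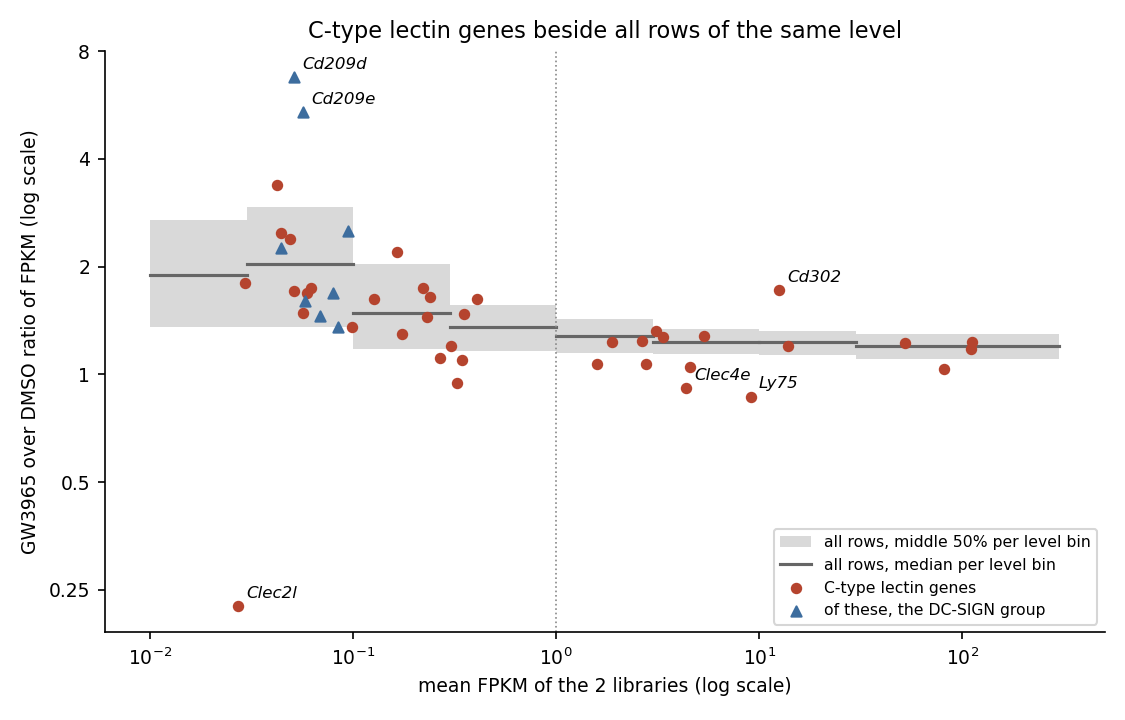
Ratio of GW3965 FPKM over DMSO FPKM (y axis, log scale) against the mean FPKM of both libraries (x axis, log scale) for 46 C-type lectin genes (points). Triangles are the DC-SIGN group, and Clec2j, listed at 0 in GW3965, is left out. The median (line) and middle 50% (grey) are those of all rows listed above 0 in both libraries, in bins of level. The bin medians lie higher at low levels, at 2.03 between 0.03 and 0.1 FPKM against 1.20 between 30 and 300 FPKM, and of the 16 measured genes Cd302 lies above the grey block of its level and 6 lie below theirs: Ly75, Clec4e, Clec12a, Cd93, Clec16a and Clec4n.

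Partners through which the receptors signal were described as a list of 22 genes, all measured. Of these 2 were higher by 1.5-fold, beside 3.46% of all measured rows, and 0 were lower, beside 0.0757%. After centring 1 was higher, beside 1.38%, and 0 were lower, beside 0.336%. The list's median was 0.19 on the log2 scale and -0.05 once centred, and 7 of 22 lay above the median of all rows. Of the 3 adaptors, Fcer1g and Tyrobp were abundant, with centred log2 ratios of -0.19 and -0.11, and Hcst (DAP10), which had 15.9 FPKM in GW3965, against 13.5 FPKM in DMSO, had -0.02. Fcer1g, the adaptor of Mincle, had 258 FPKM in GW3965, against 248 FPKM in DMSO, a ratio of 1.04 (1.02 to 1.06). Tyrobp (DAP12) had 743 FPKM in GW3965, against 676 FPKM in DMSO, a ratio of 1.10 (1.08 to 1.12). The kinase Syk lay above the median of all rows, with 37.0 FPKM in GW3965, against 26.8 FPKM in DMSO, a ratio of 1.38 (1.36 to 1.41). Downstream of it, the scaffold Card9 had 14.6 FPKM in GW3965 and 13.0 in DMSO, its partner Bcl10 had 3.70 and 2.58 FPKM, and the paracaspase Malt1 had 20.8 and 20.2 FPKM. These 3 proteins act as 1 complex, and the centred log2 ratios of their genes were -0.08 for Card9, 0.15 for Bcl10 and -0.20 for Malt1.

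The ends of the partner list were kinases. Pik3cd, the catalytic subunit of a leukocyte phosphoinositide 3-kinase, had 8.79 FPKM in GW3965, against 4.47 FPKM in DMSO, a ratio of 1.97 (1.88 to 2.06), and 0.60 as centred log2 ratio. Fgr, a Src family kinase of myeloid cells, had 6.49 FPKM in GW3965, against 3.25 FPKM in DMSO, a ratio of 1.998 (1.86 to 2.15), and 0.57 as centred log2 ratio, just under the limit of 1.5-fold. Src had 3.22 FPKM in GW3965, against 4.25 FPKM in DMSO, a ratio of 0.756 (0.701 to 0.815), and -0.56 as centred log2 ratio. Their relative Lyn had a centred log2 ratio of -0.0030. These 3 members of the Src family were therefore spread over nearly the whole range of the list, while the inhibitory phosphatases Ptpn6 and Inpp5d had centred log2 ratios of -0.06 and -0.05.

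**Figure D4:**
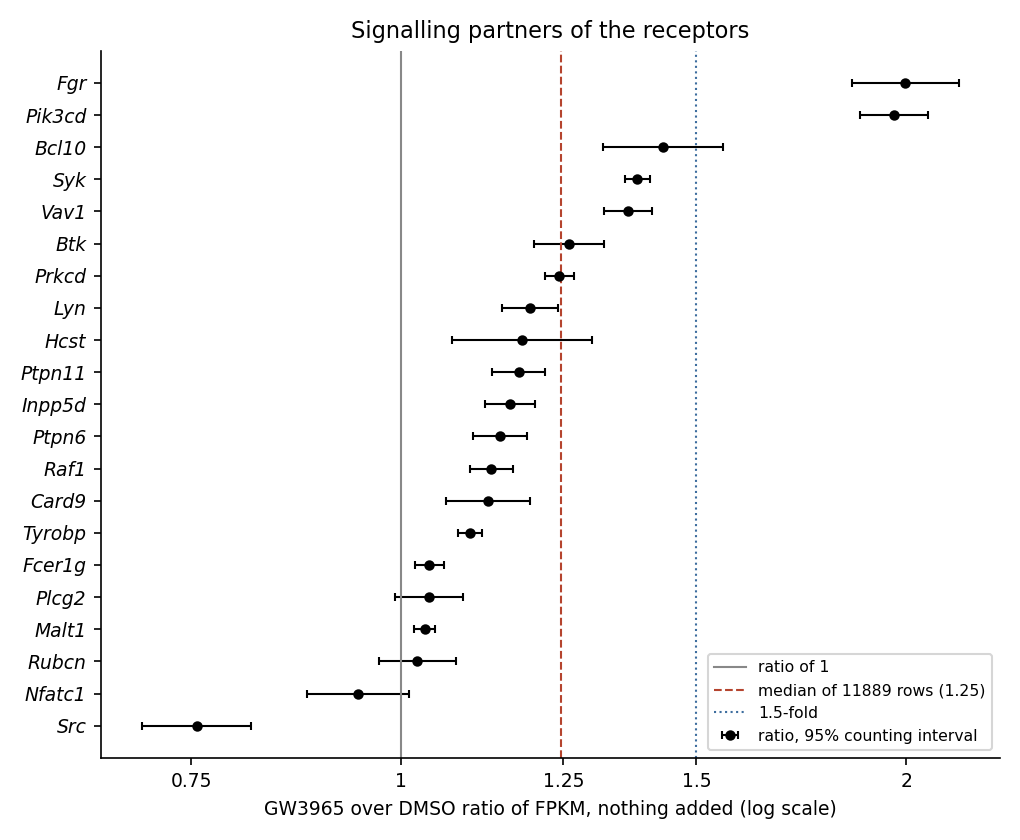
Ratio of GW3965 FPKM over DMSO FPKM with nothing added (x axis, log scale) for 21 of the 22 signalling partners, ordered by ratio, with 95% counting intervals; lines as in the plot of receptor ratios. Fgr and Pik3cd lie to the right of 1.5 and Src is the only plotted gene whose interval is wholly to the left of 1.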

How the data were processed

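The authors deposited FPKM values in 1 table, with a column for each library. STAR 2.3.0, HTSeq 0.5.4p3 and GRCm38 (mm10) are named in the submitters' processing notes, without saying what each was used for. No source used here gives the annotation, strand setting, filters or treatment of reads with several matches, so overlapping genes and close copies may share reads. A Qiagen kit served to isolate total RNA and a TruSeq kit to prepare the libraries, per the labels' protocols.

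The FPKM values change in steps of 1 read, which gave the read totals. Of 29845 rows below 0.3 FPKM in DMSO, 96.4% gave whole-number ratios of reads, against 6.53% with the factor between the libraries moved by 1%. GENCODE M21 exon lengths reduced by 99 bases then gave the totals. For each gene, the gene length at which both values are whole reads, within the last printed decimal, gave its reads. This held for 16 of 16 measured members, and for 0 of 16 with the totals raised by 1%. Where multiples of a length also fitted, the one nearest the GENCODE length was taken, as for Clec16a among the measured members. No member had whole reads at its GENCODE length itself, so each read count rests on a fitted length. For Cd93 that length was 5499 bases against 6677 in GENCODE, and for the low member Clec3a 2924 against 591. On simulated data the reads were exact for 185 of 200 rows of at least 1 FPKM and 185 of 200 rows below it, and the ratio of reads for all 200 of each, so a printed pair of read counts may be off by a common factor. Some simulated lengths equalled the GENCODE length and the others stayed closer to it than that of Clec3a did. The share of exact reads may therefore be lower for the members.

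Intervals are exact conditional (Clopper-Pearson) 95% intervals, and for ratios of ratios exact conditional odds ratio intervals. No test was made, since each group has 1 library. The members and lists were chosen with earlier results of these data known. Every measured member is named. Low members are named from 0.1 FPKM in either library or when listed at 0, and a few others were named after their values were seen. Some listed genes are not reported here. Tools were scipy 1.17.1, pandas 2.3.3, numpy 2.4.6 and matplotlib 3.10.9 under Python 3.11.15.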

Additional observations from a re-analysis of the deposited data

How the results depend on the processing

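No paired analysis was possible because only 1 library stands for each treatment. The count of members higher in GW3965, 1 as deposited, was 0 centred on the median of all measured rows, 0 with the same upper quartile and 0 at 2-fold, since Cd302 then had log2 ratios of 0.48, 0.44 and 0.72. It stayed 1 with pseudocounts of 0.1 or 0.5 FPKM, no filter on low values, a mean of at least 5 FPKM and the same sum of FPKM. The count of members lower stayed 0 under these 8 alternatives. The members' median log2 ratio, 0.23, was -0.013 centred, -0.023 with the same upper quartile, 0.45 with the same sum and 0.060 with no filter on low values, which adds the 31 low members. The count of partner genes higher or lower, 2, was 1 at a mean of at least 5 FPKM, 1 centred, 0 with the same upper quartile, 5 with the same sum and 0 at 2-fold. Other genes counted, a moved scale or a stricter limit give these changes by construction. Of 120 values of single members 117 stayed on their side of the limit, 3 lost it (Cd302, above) and 0 reversed past it, while 19 changed sign, 8 of them on centring. With the same sum of FPKM both members lower as deposited became higher, Ly75 at 0.055 and Clec4e at 0.12. Depth limits the 31 low members, with 0 to 240 reads in GW3965 and 1 to 200 in DMSO.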

Other observations

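Genes with a C-type lectin-like domain outside the family described above were looked up as a list of 30, written from general knowledge with the other results known. Of these, 4 reached a mean of 1 FPKM, and 0 were higher or lower by 1.5-fold, beside 3.46% and 0.0757% of all measured rows. Colec12, a scavenger receptor with a collagen-like stalk, had 13.0 FPKM in GW3965 and 8.76 FPKM in DMSO, a ratio of 1.48 (95% counting interval 1.44 to 1.53) and a centred log2 ratio of 0.28. Thbd (thrombomodulin), the namesake of the group of Cd93, had 7.60 FPKM in GW3965 and 5.81 FPKM in DMSO, a ratio of 1.31 (1.23 to 1.39). Layn, a hyaluronan receptor, had 7.12 FPKM in GW3965 and 5.89 FPKM in DMSO, and Cd72, an inhibitory receptor of B cells, had 2.10 FPKM in GW3965 and 1.99 FPKM in DMSO. Olr1, Cd207 and the collectins Mbl1 and Mbl2 were all below 0.2 FPKM in both libraries.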
